A study of Homo sapiens with 18 samples.

Results

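The enzymes described here make serine and carry its one-carbon unit through folate. They are 9 genes, PHGDH, PSAT1, PSPH, SHMT1, SHMT2, MTHFD1, MTHFD1L, MTHFD2 and ALDH1L2, chosen by gene symbol from the 47021 rows of a poly(A) RNA count table. Of these 9, 8 were among the 14732 genes with enough counts to be tested, and ALDH1L2 was not. The set was proposed with results of these same libraries known, so the values of the 9 genes, and the calls that a fit across all genes gave for them, stand as a description and not as independent evidence. The libraries came from DLD1, an established human colorectal cancer cell line. It was transduced with lentivirus, selected with puromycin and carried 1 of 3 guides: a control guide (sgC, labelled wild type), ZNF692 guide 1 (sgZ1) or ZNF692 guide 3 (sgZ3), the last 2 labelled as ZNF692 knockouts. Each guide had 3 libraries, 9 in all, and the cells of every group shared the same medium, serum, transduction and selection. The labels do not say whether the 3 libraries of a guide came from separate cultures or whether a line was 1 clone, so the spread between libraries may be technical.

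Serine is made from a glycolytic intermediate in 3 steps, by PHGDH, PSAT1 and PSPH in that order. A serine hydroxymethyltransferase then splits serine into glycine and a one-carbon unit bound to tetrahydrofolate, in the cytosol (SHMT1) or in mitochondria (SHMT2). In mitochondria MTHFD2 oxidises that unit, MTHFD1L releases it as formate, and ALDH1L2 can oxidise it to carbon dioxide. In the cytosol the trifunctional enzyme MTHFD1 turns formate back into folate-bound units for purine and thymidylate synthesis. Proliferating cancer cells are known to draw on this route, and several of its genes are known targets of the transcription factor ATF4.

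Sequence near transcript starts is shown for 3 of the genes. For PSAT1 and MTHFD2, which were lower in the libraries of at least 1 ZNF692 guide, it is the 5′ flank. For MTHFD1L, which differed between the guides, it is a short stretch around a motif match. The RefSeq promoter table (GRCh38.p14) held windows for 6 of the 9 genes, PHGDH, PSAT1, SHMT1, MTHFD1, MTHFD2 and MTHFD1L. Each window ran from 250 bases before to 50 bases after a transcript start. The windows were searched on both strands for TGATGNAA, the form of the CARE element bound by ATF4 and its partners, and for CACGTG, the E-box bound by MYC among other factors. The 2 motifs do not overlap each other. The first was in 3.62% and the second in 7.26% of all 35116 windows of this length. Capitals mark the CARE match; the stretches of PSAT1 and MTHFD2, which end before the first annotated exon, hold neither motif.
PSAT1 (chr9:78296875-78297124, plus strand): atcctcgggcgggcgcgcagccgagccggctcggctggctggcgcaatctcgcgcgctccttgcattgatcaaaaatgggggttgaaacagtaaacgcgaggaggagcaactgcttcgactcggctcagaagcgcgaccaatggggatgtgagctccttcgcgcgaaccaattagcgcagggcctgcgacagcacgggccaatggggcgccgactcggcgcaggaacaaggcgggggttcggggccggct
MTHFD2 (chr2:74198365-74198561, plus strand): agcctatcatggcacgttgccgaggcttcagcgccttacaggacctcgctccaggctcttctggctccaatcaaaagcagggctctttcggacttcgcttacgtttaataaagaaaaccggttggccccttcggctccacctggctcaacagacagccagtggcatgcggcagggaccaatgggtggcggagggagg
MTHFD1L (chr6:150866347-150866374, plus strand): ccgccggctcTGATGCAAtcgcgccggg
The table gives 4 windows for MTHFD1L. The CARE match began 129 bases before the start of the first and 90 bases before that of the third, and lay after the start of the second. An E-box began 154, 115 and 1 bases before those starts, in the same order, and the last window held neither motif. The MTHFD1L stretch shown, with its CARE match, lies within an alternative exon of the gene at chr6:150866333-150866387. The E-box match overlaps the edge of that exon. MTHFD1 had an E-box beginning 15 bases before its start. The windows of PHGDH, PSAT1, SHMT1 and MTHFD2 had no match to either motif.

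The libraries held 16044224 to 24535642 counts each, of which the 9 enzymes took 33142 to 68497. ZNF692 itself was at 7.01, 6.32 and 6.18 CPM in the sgC libraries (CPM, counts relative to the library size after adjustment by the trimmed mean of M-values, TMM, on the usual per-million scale), at 9.64, 9.82 and 11.5 CPM in sgZ1 and at 7.92, 8.08 and 6.29 CPM in sgZ3. ZNF692 RNA was therefore not lower with either guide, and counts summed over exons do not register a small edit, so they do not check the knockout. In edgeR's quasi-likelihood test over all tested genes ZNF692 was higher in sgZ1 (log2 fold change 0.66 ± 0.14 SE, adjusted p = 0.00475). In sgZ3 it was at 0.19 ± 0.14 (adjusted p = 0.319). The names sgZ1 and sgZ3 below mean the libraries labelled so. Colon epithelial markers such as EPCAM and KRT8 were present in all 9 libraries, with summed levels of 9147 to 10176 CPM in sgC, 8825 to 9702 CPM in sgZ1 and 11008 to 11883 CPM in sgZ3. CDX1 was near the limit of detection, at 0.203 to 0.868 CPM, and VIL1 was at 8.68 to 16.0 CPM. The means of EPCAM, KRT8, KRT18, KRT19 and KRT20 were higher in sgZ3 than in sgC. Those of CDH1, VIL1, CDX2, CDX1 and CDH17 were lower. Leukocyte and endothelial marker sums stayed at or under 5.84 and 3.67 CPM, with CD68 and EMCN at 0 in every library. CD14, at 4.12 to 5.84 CPM, and VWF, at 1.51 to 3.50 CPM, made up most of these sums. The endothelial marker KDR had 23 counts in sgZ1 replicate 2 and 28 in sgZ3 replicate 3. It had 3 in sgZ1 replicate 3 and 0 in the other 6 libraries. The 10 fibroblast and mesenchymal markers summed to 114 CPM in sgZ1 replicate 2 and 117 CPM in sgZ3 replicate 3, against 9.47 to 13.7 CPM in the other 7 libraries. VIM was at 22.9 and 21.2 CPM in that pair and at most 1.22 CPM elsewhere. SPARC, at 64.3 and 66.8 CPM, made up most of the sum, with COL1A1 at 12.2 and 15.2 CPM. Not all 10 markers rose. In that pair DCN had 0 counts in both libraries, LUM had 1 and 0, and COL1A2 had 2 and 0. THY1 was at 1.35 CPM in sgZ1 replicate 2 and also in sgZ1 replicate 1.

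The 3 enzymes of serine synthesis were lower with both ZNF692 guides. Their summed level was 1433.5 to 1620.3 CPM in sgC, 977.1 to 1137.1 CPM in sgZ1 and 797.1 to 915.8 CPM in sgZ3, so the ranges of the 3 groups did not overlap. In these bulk libraries fewer cells expressing a gene and less RNA per cell cannot be told apart. A gene is called here when edgeR's quasi-likelihood test, run over all 14732 genes, gave a false discovery rate under 0.05. With both guides combined, 4 of the 8 tested enzymes were called lower, PHGDH, PSAT1, PSPH and MTHFD2, where 14.6% of all tested genes were called lower. None was called higher, where 18.6% of all tested genes were. Those calls come from the contrast the set was chosen on, and nothing is read from their number.

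PHGDH, the dehydrogenase of the first and committed step, lies on chromosome 1 at 119648411 to 119744226, plus strand (GENCODE 29, GRCh38). It was at 473, 339.5 and 382 CPM in the sgC libraries, at 308, 279.8 and 331 CPM in sgZ1 and at 303, 289 and 264 CPM in sgZ3. Every library of either ZNF692 guide was below every sgC library, but sgC replicate 1 stood well above the other two. The log2 fold change was -0.38 ± 0.12 (SE) for sgZ1 and -0.48 ± 0.12 for sgZ3. Without sgC replicate 1 these were -0.24 and -0.34, both calls were lost, and so was the call for both guides together, at -0.29. The call for sgZ1 was also lost on leaving out sgC replicate 3, any 1 sgZ1 library or sgZ3 replicate 2.

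PSAT1, the aminotransferase of the second step, is on chromosome 9 at 78297143 to 78330093, plus strand. It was the most highly expressed of the enzymes per length. Its level was 972, 910.0 and 902 CPM in sgC, 687, 571 and 596 CPM in sgZ1 and 499.6, 458 and 444 CPM in sgZ3. The 3 groups did not overlap, with sgC highest and sgZ3 lowest. The log2 fold change was -0.59 ± 0.091 for sgZ1, a fold of 0.666, and -0.99 ± 0.092 for sgZ3, a fold of 0.504. These calls held in all 19 alternative settings for each guide.

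PSPH, the phosphatase of the last step, is on chromosome 7 at 56011051 to 56051604, minus strand. It was at 175, 184 and 176 CPM in sgC, at 142, 126 and 137 CPM in sgZ1 and at 113, 104 and 88.9 CPM in sgZ3. As for PSAT1, the groups stood in 3 separate steps. The log2 fold change was -0.40 ± 0.10 for sgZ1 and -0.81 ± 0.10 for sgZ3. PHGDH, PSAT1 and PSPH share no exon bases with another annotated gene. The PSAT1 pseudogene PSAT1P3 had 1 to 5 counts a library.

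**Figure D1:**
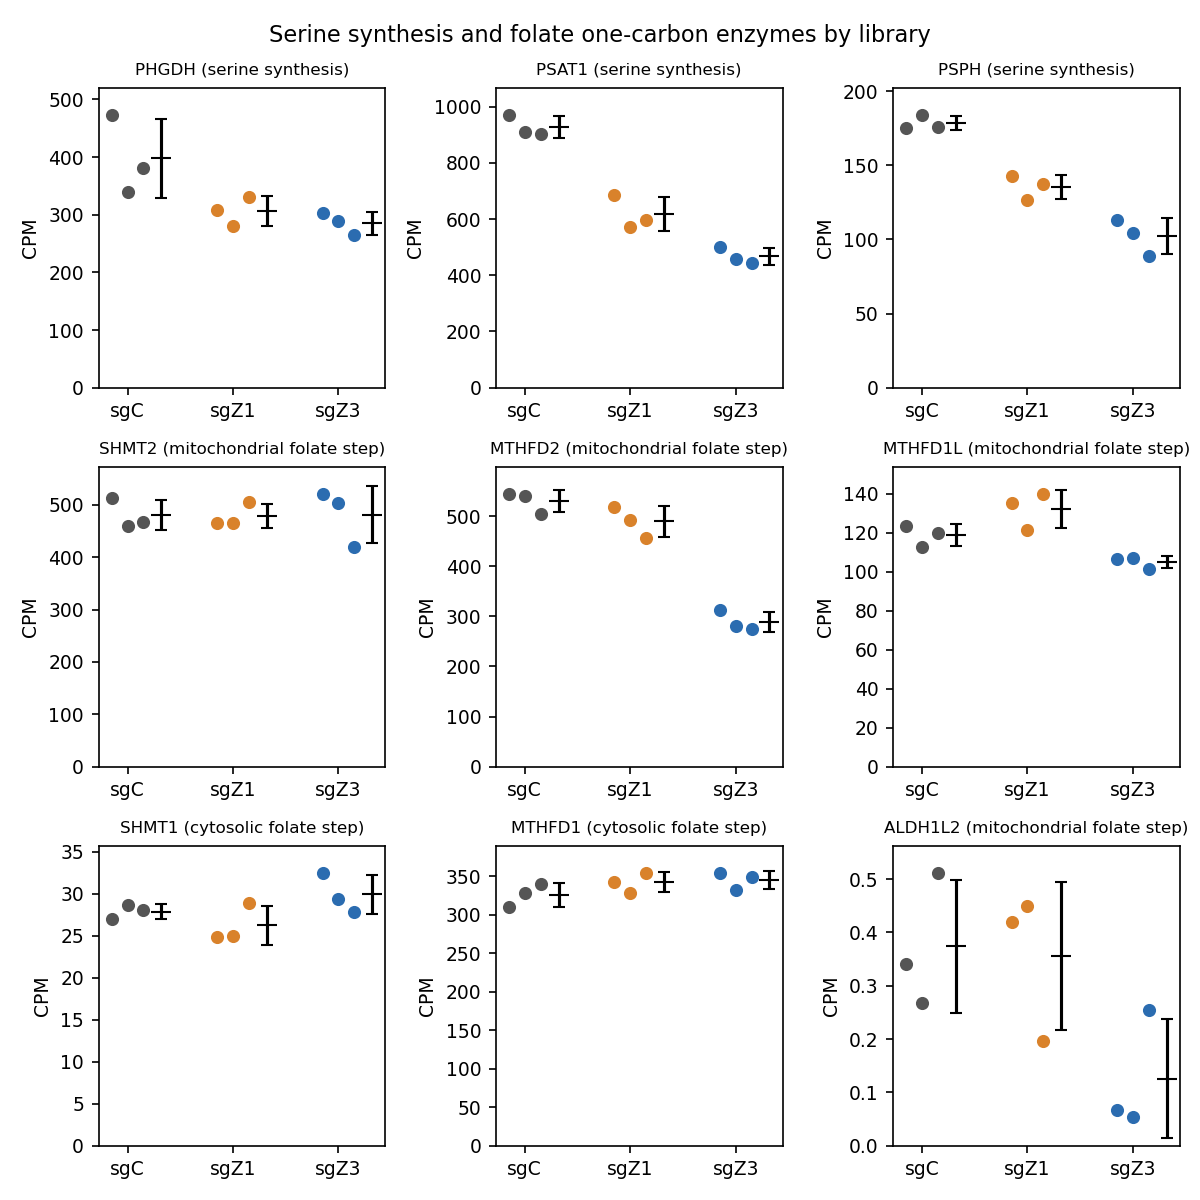
Level of each of the 9 enzymes in CPM (vertical axes, each from 0) in every library; points are the 3 libraries of sgC, sgZ1 and sgZ3, and the bars beside them give the mean and SD. PSAT1 and PSPH step down from sgC to sgZ1 to sgZ3, MTHFD2 is low in sgZ3, and SHMT2, SHMT1 and MTHFD1 overlap between groups.

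Within the mitochondrial folate steps, MTHFD2 was much lower in sgZ3 while SHMT2 was level across the groups. MTHFD2, the dehydrogenase and cyclohydrolase, is on chromosome 2 at 74198562 to 74217565, plus strand. It was at 545, 539.6 and 504 CPM in sgC, at 519, 493 and 456 CPM in sgZ1 and at 312, 281 and 275 CPM in sgZ3. The sgC and sgZ1 libraries overlapped, and every sgZ3 library was below all of them. The log2 fold change was -0.11 ± 0.086 for sgZ1 (not called) and -0.87 ± 0.087 for sgZ3 (called), and the 2 guides differed by -0.76 ± 0.087. MTHFD2 shares 1324 exon bases with SLC4A5 on the opposite strand, which had 89 to 471 counts a library. Because the counting strand is not given in the sources used here, reads from the 2 genes cannot be told apart there.

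SHMT2, the mitochondrial hydroxymethyltransferase, is on chromosome 12 at 57229327 to 57234935, plus strand. It was at 513, 460.3 and 468 CPM in sgC, at 466, 465 and 505 CPM in sgZ1 and at 521, 504 and 419 CPM in sgZ3. The lowest and the highest of the 9 values were both in sgZ3. The log2 fold change was -0.01 for sgZ1 and 0.00 for sgZ3, and neither was called.

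MTHFD1L, the formate-releasing synthetase, is on chromosome 6 at 150865549 to 151101887, plus strand. Its level was 124, 113 and 120.0 CPM in sgC, 135, 121 and 139.9 CPM in sgZ1 and 107, 107 and 101 CPM in sgZ3. The sgZ3 libraries were below the other 6, and the sgC and sgZ1 ranges overlapped. Its log2 fold change against sgC was 0.15 ± 0.088 for sgZ1 and -0.18 ± 0.088 for sgZ3, and neither was called. Between the guides it was -0.33 ± 0.088 and called, a call that was lost without sgZ1 replicate 1, at a false discovery rate under 0.01 and, at -0.32, in a fit of only these 2 groups. Without sgZ1 replicate 2, sgZ3 was called lower than sgC as well.

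ALDH1L2, the mitochondrial formyl-tetrahydrofolate dehydrogenase, is on chromosome 12 at 105019784 to 105084577, minus strand. It had 7, 5 and 12 counts in the sgC libraries, 9, 11 and 4 in sgZ1 and 1, 1 and 5 in sgZ3. It was near the limit of detection everywhere, and the low-count filter left it untested.

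Neither cytosolic enzyme was called in any comparison. SHMT1, the cytosolic hydroxymethyltransferase, is on chromosome 17 at 18327860 to 18363563, minus strand. It was at 26.9, 28.6 and 28.1 CPM in sgC, at 24.9, 24.9 and 28.9 CPM in sgZ1 and at 32.5, 29.4 and 27.9 CPM in sgZ3. The groups overlapped, with a log2 fold change of -0.09 for sgZ1 and 0.10 for sgZ3. MTHFD1, on chromosome 14 at 64388031 to 64463457, plus strand, was at 309.7, 328 and 340.4 CPM in sgC. It was at 343, 329 and 355 CPM in sgZ1 and at 355, 332 and 349 CPM in sgZ3. Here too the groups overlapped, with a log2 fold change of 0.07 for sgZ1 and 0.08 for sgZ3. The limit of the unknown counting strand, given for MTHFD2, applies to these genes as well. SHMT1 shares 196 exon bases with SMCR8 on the opposite strand, which had 673 to 1188 counts a library. On the opposite strand MTHFD1 shares 178 with ZBTB25 and 756 with AL122035.2, and SHMT2 shares 427 with AC137834.2.

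Taken guide by guide, sgZ1 had 3 of the 8 tested enzymes called lower, PHGDH, PSAT1 and PSPH, beside 10.3% of all tested genes, and 0 called higher, beside 15.5%. The same 3 and MTHFD2 were called lower in sgZ3, 4 of 8 beside 17.1% of all tested genes, and 0 were called higher, beside 19.2%. Between the guides, PSAT1, PSPH, MTHFD2 and MTHFD1L were called lower in sgZ3 than in sgZ1, 4 of 8 beside 15.8%, and 0 higher, beside 12.8%. All 3 sgZ3 libraries were below all 3 sgC libraries for 5 of the 8, PHGDH, PSAT1, PSPH, MTHFD2 and MTHFD1L, beside 26.6% of all tested genes. They were below all 3 sgZ1 libraries for PSAT1, PSPH, MTHFD2 and MTHFD1L, beside 18.3%. The median log2 fold change over the 8 enzymes was -0.10 for sgZ1 and -0.33 for sgZ3, against 0.011 and -0.018 over all tested genes. The comparisons of the guides with sgC share the sgC libraries.

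**Figure D2:**
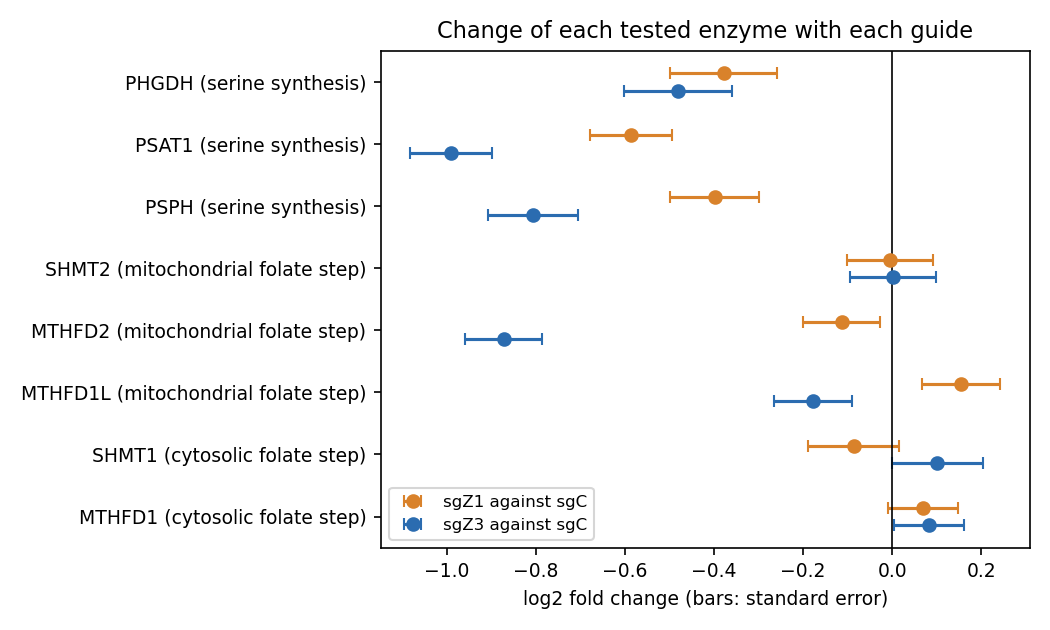
Log2 fold change against sgC (horizontal axis) of the 8 tested enzymes for sgZ1 (orange) and sgZ3 (blue); bars are standard errors of the edgeR fit and the vertical line marks no change. The sgZ3 point lies further below 0 than the sgZ1 point for PSAT1, PSPH and MTHFD2, and MTHFD1L lies on opposite sides of 0.

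These directions use the TMM library factors. Scaling by library totals alone moved the median of all genes in sgZ3 by -0.155 on the log2 scale. Under that scaling SHMT1, MTHFD1 and SHMT2 were at -0.06, -0.07 and -0.16 in sgZ3, below 0 rather than at or above it, and still not called. MTHFD1L was then called lower in sgZ3, at -0.33, as it also was with upper-quartile factors. The sgZ1 library and the sgZ3 library with mesenchymal markers had the lowest PHGDH, PSAT1, PSPH, SHMT2 and MTHFD1L of their guides. That pattern was picked out after the values were seen. For SHMT2 in sgZ1 the gap was small, 464.7 CPM against 465.8 CPM in replicate 1. Without that pair the 4 enzymes called lower in sgZ3 were still called, with PHGDH at -0.48, and PHGDH in sgZ1 was at -0.33 and called. MTHFD1L was then called as well, higher in sgZ1 and lower in sgZ3. The part of the mesenchymal signal in these values was otherwise not tested.

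The relation of mitochondrial to cytosolic enzymes was followed in each library as a log2 ratio of CPM, which does not depend on the library scaling. The ratio of MTHFD2 to MTHFD1 was 0.70 ± 0.12 (SD, n = 3) in sgC, 0.51 ± 0.13 in sgZ1 and -0.26 ± 0.083 in sgZ3. MTHFD2 thus had more counts than MTHFD1 in all 6 sgC and sgZ1 libraries and fewer in all 3 sgZ3 libraries, a difference of -0.96 between sgZ3 and sgC. The ratio of MTHFD1L to MTHFD1 was -1.46 ± 0.12 in sgC, -1.38 ± 0.057 in sgZ1 and -1.72 ± 0.077 in sgZ3. Its 3 sgZ3 values, from -1.79 to -1.63, were below the other 6, of which the lowest was -1.54. The ratio of SHMT2 to SHMT1 was 4.11 ± 0.13 in sgC, 4.19 ± 0.056 in sgZ1 and 4.003 ± 0.094 in sgZ3. The sgC range overlapped that of each guide. All 3 sgZ3 values, of which the highest was 4.0977, were below the sgZ1 values, of which the lowest was 4.125.

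**Figure D3:**
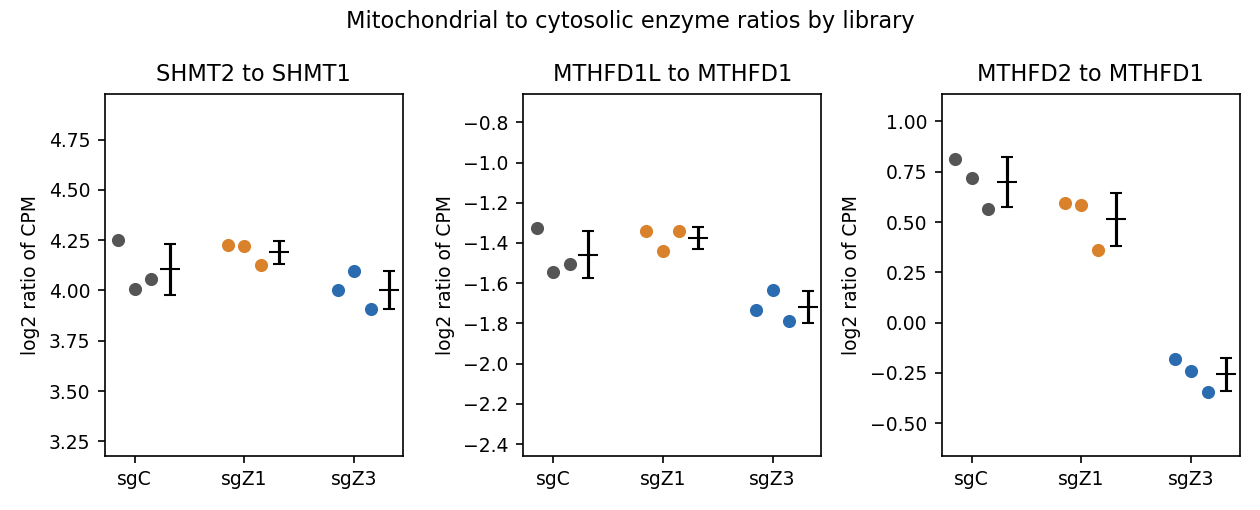
Log2 ratio of CPM of a mitochondrial enzyme to its cytosolic counterpart (vertical axes, which do not start at 0) in each of the 9 libraries, with mean and SD beside each group. MTHFD2 to MTHFD1 is between 0.36 and 0.81 in sgC and sgZ1 and between -0.35 and -0.18 in sgZ3.

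Levels of different enzymes were compared per length, as CPM per kilobase of the principal transcript. In sgC the order was PSAT1 at 424 ± 17.4 (SD, n = 3), SHMT2 at 189 ± 11.2, PHGDH at 154 ± 26.5, MTHFD2 at 119 ± 4.92 and MTHFD1 at 104 ± 4.93. PSPH followed at 81.9 ± 2.24, MTHFD1L at 32.9 ± 1.54 and SHMT1 at 11.3 ± 0.344. Of these neighbours only SHMT2 and PHGDH overlapped between libraries. In sgZ3 PSAT1 was at 214 ± 13.2 and SHMT2 at 190 ± 21.5 per kilobase, with overlapping libraries. MTHFD2, at 65.0 ± 4.51 per kilobase in sgZ3, was below MTHFD1 at 110.1 ± 3.76 there. The order depends on the length used. Per kilobase of all annotated exons, the sgC means were 109 for MTHFD2, 99.3 for SHMT2, 64.6 for PSPH and 43.2 for PHGDH, with PSAT1 still at 424.

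The genes with patterns most like those of 3 enzymes were sought among 9251 genes with a mean of at least 10 CPM. Likeness was the root mean square difference in log2 CPM over the 9 libraries, each gene set relative to its own sgC mean. For PHGDH the nearest was SARS1, the cytosolic seryl-tRNA synthetase, at 0.063, with mean levels of 373 CPM in sgC, 277 CPM in sgZ1 and 279 CPM in sgZ3. PXK, FBXL20, FAM149B1 and STX7 came next, at 0.099 to 0.12. For PSAT1 the nearest were CCNG2 at 0.11, TTC30A, LONRF1, TTC39B and RIOK3, the last at 0.13. For MTHFD2 the nearest was CEBPG, which codes for a partner of ATF4, at 0.10, followed by WDFY1, ARRDC3, GPCPD1 and LZTFL1, the last at 0.16. CEBPG was at 109.6, 105 and 108 CPM in sgC, at 106, 100.4 and 89.7 CPM in sgZ1 and at 66.3, 64.9 and 64.2 CPM in sgZ3. Its sgZ3 libraries stood apart below the other 6, as those of MTHFD2 did. CEBPG was picked for its likeness to MTHFD2 over these libraries, so nothing is read from that shared pattern.

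Beyond these enzymes, 45 genes of serine, glycine, folate and methionine metabolism were listed, and 39 of them were tested. Like the set of enzymes, this list and that of the regulators below were drawn up with earlier results of these data known. Their calls and adjusted p-values are therefore not independent evidence. Of the 39, 10 were called higher and 5 lower in sgZ1, beside 15.5% and 10.3% of all tested genes. In sgZ3, 9 were higher and 7 lower, beside 19.2% and 17.1%. Between the guides, 7 were higher and 6 lower in sgZ3 than in sgZ1, beside 12.8% and 15.8%. The split depended on the scaling. In sgZ3 it was 8 higher and 9 lower with upper-quartile factors, and 6 and 11 with library totals alone. Between the guides it was 4 and 6, and 3 and 6, in that order. The adjusted p-values below come from the same edgeR fit, adjusted by the Benjamini-Hochberg procedure across all tested genes.

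The folate carriers SLC19A1 and SLC25A32 rose with both guides. Of 6 tested folate uptake and retention genes, 2 rose and 1 fell in sgZ1 (15.5% and 10.3% of all tested genes), and 3 rose and 0 fell in sgZ3 (19.2% and 17.1%). SLC19A1, the reduced folate carrier, was at 33.3, 34.4 and 36.5 CPM in sgC, at 55.5, 66.7 and 66.2 CPM in sgZ1 and at 75.0, 77.4 and 83.8 CPM in sgZ3. The 3 groups did not overlap, and the log2 fold change was 0.85 ± 0.10 (adjusted p = 8.08e-05) for sgZ1 and 1.18 ± 0.10 (adjusted p = 7.92e-05) for sgZ3. SLC25A32, the mitochondrial folate carrier, rose from 14.7 ± 0.533 CPM (SD) in sgC to 26.9 ± 3.09 CPM in sgZ1 and 26.5 ± 3.79 CPM in sgZ3, with adjusted p = 0.000423 and 0.00084. SLC46A1, the proton-coupled folate transporter, rose in sgZ3 from 5.62 to 12.0 CPM (adjusted p = 0.000177) and was at 6.86 CPM in sgZ1. FOLR1, a folate receptor, fell in sgZ1 from 8.28 to 4.35 CPM (adjusted p = 0.00296) and was at 7.67 CPM in sgZ3. These calls held in every alternative setting that tested them.

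Transporters of serine and glycine moved in both directions. Of 10 tested, 3 rose and 3 fell in sgZ1, where 15.5% and 10.3% of all tested genes did. In sgZ3 2 rose and 3 fell, where 19.2% and 17.1% did. SLC38A5, a glutamine, serine and glycine transporter, had 1, 3 and 4 counts in the sgC libraries, 808, 1164 and 980 in sgZ1 and 3, 0 and 4 in sgZ3. Its RNA was thus abundant in sgZ1 and near absent in the other 6 libraries (sgZ1 against sgC, log2 fold change 8.38 ± 0.32, adjusted p = 9.32e-09). SLC38A2, a neutral amino acid transporter, rose in sgZ1 from 623 ± 22.8 to 887 ± 83.1 CPM (adjusted p = 0.00127) and was at 638 ± 30.4 CPM in sgZ3. SLC6A9, a glycine transporter, was at 98.2, 90.6 and 106 CPM in sgC, at 62.3, 33.6 and 73.0 CPM in sgZ1 and at 30.0, 32.6 and 29.4 CPM in sgZ3. Its fall was -0.80 ± 0.21 on the log2 scale in sgZ1 (adjusted p = 0.0158) and -1.68 ± 0.22 in sgZ3 (adjusted p = 0.000395). The sgZ1 call was lost without sgC replicate 1 or 3. SFXN1, a mitochondrial serine carrier, was at 176 ± 2.99 CPM in sgC and rose to 219 ± 16.2 CPM in sgZ1 (adjusted p = 0.016) and 229 ± 10.6 CPM in sgZ3 (adjusted p = 0.00573).

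**Figure D4:**
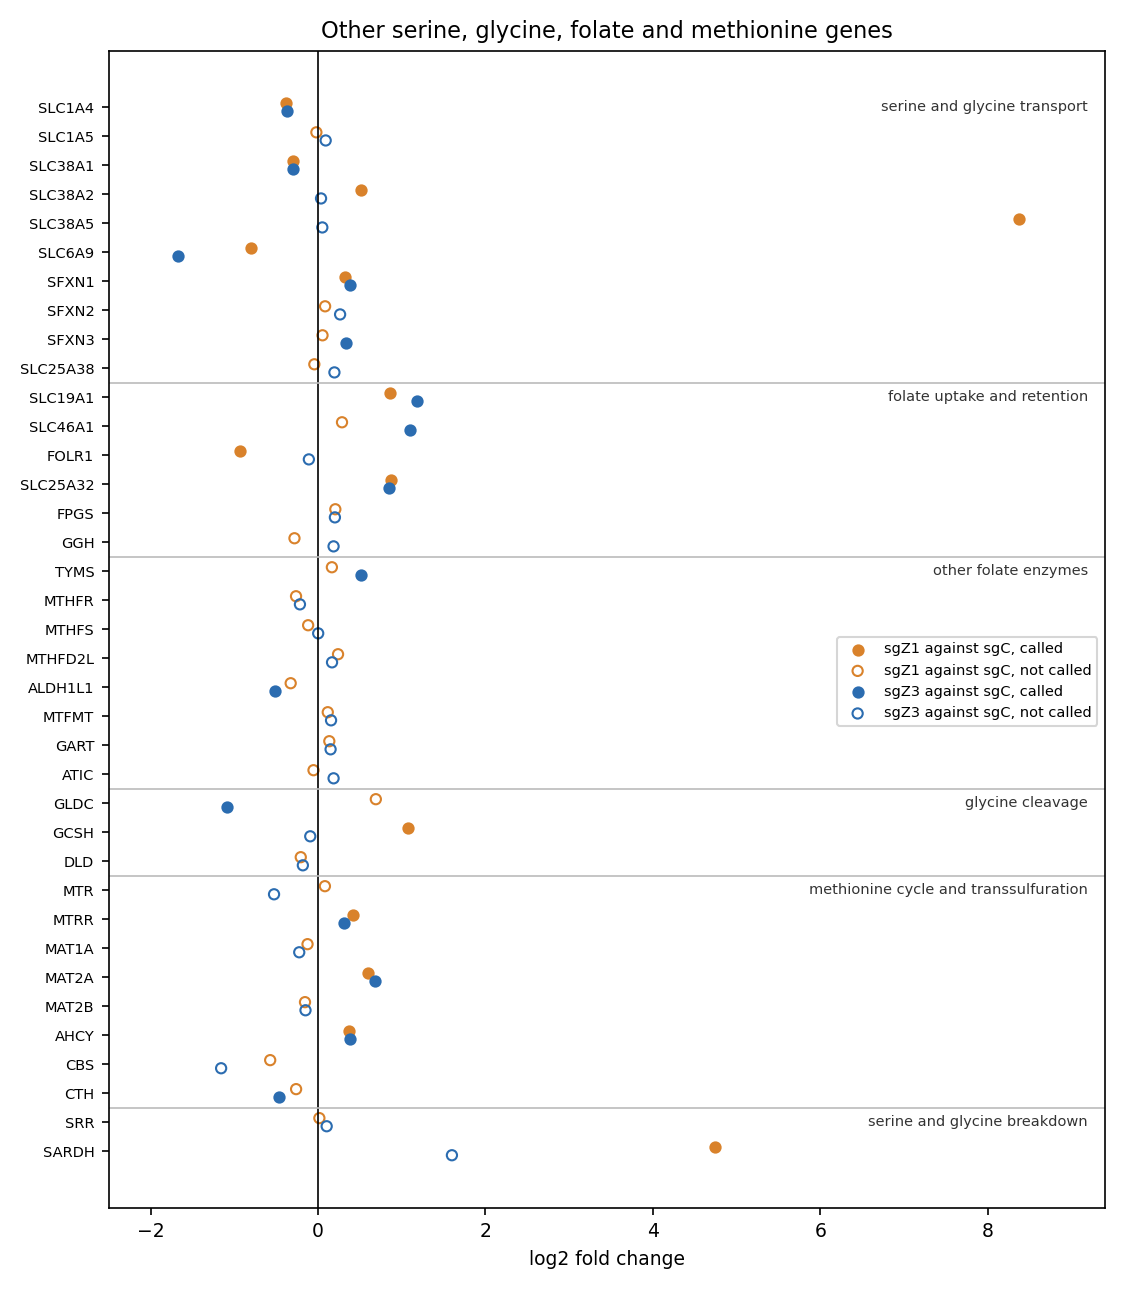
Log2 fold change against sgC (horizontal axis) of tested serine, glycine, folate and methionine genes by role, for sgZ1 (orange) and sgZ3 (blue); filled points were called at a false discovery rate under 0.05. SLC19A1, SLC25A32 and MAT2A are above 0 with both guides, and SLC38A5 and SARDH are called in sgZ1 alone.

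Among the 10 tested other folate enzymes, 0 were called higher and 1 lower in sgZ1, beside 15.5% and 10.3% of all tested genes. In sgZ3, 1 was called higher and 2 lower, beside 19.2% and 17.1%. TYMS, thymidylate synthase, rose in sgZ3 from 215 ± 15.4 to 308 ± 34.4 CPM (adjusted p = 0.00508) and was at 241 ± 29.6 CPM in sgZ1. ALDH1L1, the cytosolic counterpart of ALDH1L2, was called lower in sgZ3 from 4.06 to 2.83 CPM (adjusted p = 0.0472). That call was lost in 10 of 18 alternatives. Among them were DESeq2 and leaving out any 1 sgC library, sgZ1 replicate 1 or 3, or sgZ3 replicate 1 or 2.

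Of 3 tested glycine cleavage genes, 1 rose and 0 fell in sgZ1 (15.5% and 10.3% of all tested genes), and 0 rose and 1 fell in sgZ3 (19.2% and 17.1%). GCSH, the lipoyl carrier of the glycine cleavage system, was at 11.0, 11.2 and 10.3 CPM in sgC, at 23.5, 24.4 and 20.5 CPM in sgZ1 and at 10.4, 8.84 and 11.2 CPM in sgZ3. It rose in sgZ1 (log2 fold change 1.08 ± 0.12, adjusted p = 5.52e-05), and its sgZ3 and sgC libraries overlapped. GLDC, the glycine decarboxylase, was at 1.09 CPM in sgC and fell to 0.516 CPM in sgZ3 (adjusted p = 0.0208), a call lost with DESeq2 and without sgC replicate 3 or sgZ3 replicate 2. SARDH, which breaks down sarcosine, had 1 or 2 counts in each sgC library, 37 to 48 in sgZ1 and 1 to 8 in sgZ3, and rose in sgZ1 (adjusted p = 3.67e-05).

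Of 8 tested methionine cycle and transsulfuration genes, 3 rose and 0 fell in sgZ1, and 3 rose and 1 fell in sgZ3, against the same shares of all tested genes, 15.5% and 10.3%, and 19.2% and 17.1%. MAT2A, which makes S-adenosylmethionine, was at 125, 129 and 145 CPM in sgC, at 206, 194 and 201 CPM in sgZ1 and at 219, 209 and 211 CPM in sgZ3. The sgC libraries stood apart below all the others (adjusted p = 0.000355 for sgZ1 and 0.000302 for sgZ3). MTRR, methionine synthase reductase, rose from 37.3 CPM in sgC to 49.9 CPM in sgZ1 (adjusted p = 0.0112) and 46.2 CPM in sgZ3 (adjusted p = 0.0359). The sgZ1 call was lost without sgC replicate 1 or 3, and that in sgZ3 was not followed through the alternatives. AHCY, which cleaves S-adenosylhomocysteine, was called higher with each guide (adjusted p = 0.025 and 0.0177), and both calls were lost without sgC replicate 1 or 3. The sgZ1 call was also lost without sgC replicate 2 or sgZ1 replicate 2 or 3, and the sgZ3 call without sgZ3 replicate 1 or 2. In all, each of the 2 AHCY calls was lost in 6 of 19 alternatives. CTH, the last enzyme of cysteine synthesis, fell in sgZ3 from 19.9 ± 1.13 to 14.4 ± 0.949 CPM (adjusted p = 0.00674).

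Of 10 tested regulators and amino-acid response genes, 2 were called higher and 0 lower in sgZ1, beside 15.5% and 10.3% of all tested genes. In sgZ3, 1 was called higher and 3 lower, beside 19.2% and 17.1%. Those called lower were CEBPG, CEBPB and SESN2. ATF4 was called in no comparison. ATF4 was at 556, 528 and 520.2 CPM in sgC, at 529, 602 and 570.3 CPM in sgZ1 and at 512, 504 and 427 CPM in sgZ3 (adjusted p = 0.541 for sgZ1 and 0.206 for sgZ3). Its 3 sgZ3 values were below the other 6. ATF4 is controlled largely at translation, which poly(A) RNA does not measure. CEBPG fell in sgZ3 (log2 fold change -0.72 ± 0.089, adjusted p = 0.000268) and was at -0.13 in sgZ1. ATF5, a relative of ATF4, rose from 22.7 ± 0.807 CPM in sgC to 34.6 ± 3.82 CPM in sgZ1 (adjusted p = 0.00109) and 33.3 ± 1.25 CPM in sgZ3 (adjusted p = 0.0023). MYC, a growth-promoting transcription factor, rose in sgZ1 from 105 ± 4.94 to 206 ± 33.1 CPM (adjusted p = 0.000138) and was at 111 ± 12.0 CPM in sgZ3. ASNS, a widely used ATF4 target, was listed at 0 in all 9 libraries. Its annotated exons share 44.6% of their bases with another gene on the same strand, so the row was not read as a level. Whether that overlap accounts for the 0 was not tested.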

How the data were processed

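Poly(A) RNA of 9 DLD1 libraries was analysed, 3 for each guide. The authors deposited a table of whole-number gene counts, neither normalized nor filtered as far as its values show. Per the submitters' processing notes, STAR 2.5.2b, SAMtools 1.9, HTSeq and DESeq2 were used with hg38 (GRCh38). No source used here gives the annotation release or the strand setting. The table of rRNA reads, with 9 per-sample columns, was not used here.

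Genes were filtered with filterByExpr and scaled with TMM, and a quasi-likelihood model (edgeR 4.0.16, R 4.3.3) with group as its only term was fitted over all 9 libraries. Benjamini-Hochberg adjustment ran over all 14732 tested genes, with a threshold of 0.05. SE is the absolute log2 fold change divided by the square root of F, and log2 CPM used a prior count of 0.5. P-values weigh the difference between groups against the spread between libraries, which may be technical. The biological coefficient of variation was 12.7%. Loci and lengths are from GENCODE 29, which held 99.2% of the tested gene IDs.

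Members and gene lists were chosen with earlier results of these data known. Genes named were the 9 enzymes and ZNF692, up to 3 called genes of smallest adjusted p per role and comparison, ATF4, MYC and up to 3 other called regulators, and the 5 genes most like each of 3 enzymes. Some genes that rule names are not reported here. ASNS was added after its values were seen. Alternatives were DESeq2 1.42.0, other scalings, filters and thresholds, a replicate block, and leaving out each library or the pair with mesenchymal markers. The code was tested on simulated data.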

Additional observations from a re-analysis of the deposited data

Results flagged for a closer look

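The results here are those where sgZ3 and sgZ1 differed from each other in the same contrast, edgeR's quasi-likelihood test of the difference giving an adjusted p under 0.05 unless said otherwise. Each value is the log2 difference, sgZ3 minus sgZ1. Among transporters it was -8.33 for SLC38A5, -0.47 for SLC38A2 and -0.87 for SLC6A9. The SLC6A9 difference was no longer called without sgZ1 replicate 1, sgZ1 replicate 3 or sgZ3 replicate 1. Among folate carriers and retention genes it was 0.81 for SLC46A1, 0.82 for FOLR1 and 0.47 for GGH, the lysosomal enzyme that trims folate polyglutamates, whose own contrasts with sgC were not called. For folate enzymes it was 0.35 for TYMS and 0.24 for ATIC, of purine synthesis, and these calls were lost in 10 and 13 of 19 alternatives. SLC19A1 (0.33, adjusted p = 0.029) and SFXN3 (0.28, adjusted p = 0.0342) were also called, outside the rule for named genes in this comparison and without a run of the alternatives.

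In glycine metabolism the difference was -1.17 for GCSH, -1.78 for GLDC and -3.15 for SARDH. Among regulators it was -0.88 for MYC, -0.60 for CEBPG and -0.52 for SESN2, a stress sensor of the amino acid pathway. For ZNF692 itself it was -0.475 (adjusted p = 0.0253), and the alternatives were not run for that gene.

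MTHFD1L differed by -0.33. All 3 sgZ1 libraries were above the sgC mean of 119 CPM and all 3 sgZ3 libraries below it. Neither guide's contrast with sgC was called for it, so the opposite directions rest on the difference between the guides. PSAT1, PSPH and MTHFD2 also differed between the guides, by -0.40, -0.41 and -0.76. All 4 belong to the chosen set, so these are descriptions.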

How the results depend on the processing

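PSAT1 kept its call in all 19 alternatives in every comparison, PSPH and MTHFD2 in all where they were called except PSPH at a false discovery rate under 0.01, and no called result changed direction. At that threshold, genes called fell from 4885 to 2278 (both guides), from 3807 to 2005 (sgZ1), from 5355 to 2609 (sgZ3) and from 4209 to 2254 (sgZ3 against sgZ1). Other pathway genes called fell from 18, 15, 16 and 13 to 10, 8, 8 and 8, and enzymes called to 1 in sgZ1 and to 2 in sgZ3 against sgZ1. A minimum mean of 10 CPM, which tests fewer genes, left 2530 genes in sgZ1, 2675 in sgZ3 against sgZ1, and 5 other pathway genes in the latter. Without the pair with mesenchymal markers, 7409, 5894, 8246 and 7932 genes were called in the 4 comparisons in that order, with 27, 21, 24 and 18 other pathway genes; the cause was not tested.

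Leaving out 1 library gave 2201 (without sgC replicate 1) to 6337 genes called for both guides, with 2389 without sgC replicate 3. The range was 2129 to 4855 in sgZ1, 3080 to 6796 in sgZ3 and 2501 to 6153 in sgZ3 against sgZ1. Other pathway genes called ranged from 11 to 25, 8 to 17, 8 to 21 and 8 to 16. The part of calls that were higher was 56.0% for both guides and 52.9% in sgZ3. It was 45.9% and 41.5% with upper-quartile factors, 36.6% and 29.6% with library totals alone, and 44.7% against 27.0% for sgZ3 against sgZ1. The same-numbered libraries did not deviate together (correlations from -0.126 to 0.205). A fit with the replicate number as a block called 5488, 4202, 5974 and 5005 genes, 19, 16, 18 and 14 other pathway genes and 4, 3, 4 and 4 enzymes. Depth limits ALDH1L2 in every library, SARDH and SLC38A5 outside sgZ1, and GLDC in sgZ3, with counts of 12 or fewer.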
